A study of Mus musculus with 9 samples.

Results

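Whole eyes of A/J mice were compared with whole eyes of BALB/c and C57BL/6J mice, with both other strains given equal weight. A gene was taken as set apart in A/J when its 3 A/J values, scaled for library size, all lay above or all lay below the 6 values of the other strains. Of 13089 genes listed and 12920 tested, 1099 were set apart (8.51%), 582 above (4.5%) and 517 below (4.0%). The tested contrast, A/J minus the mean of the other strains, called 316 genes (2.45%) at an adjusted p under 0.05, 104 higher (0.805%) and 212 lower (1.64%). The genes that were both set apart and called numbered 230 (1.78%), 82 above (0.635%) and 148 below (1.15%). Both counts come from the same libraries and the same contrast, so these shares describe the selection and are read no further.

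The 9 libraries, 3 per strain, were made from poly(A) RNA of whole eyes of wild type females at 4 weeks, and each library held pooled RNA of 5 mice. A/J and BALB/c are albino inbred strains and C57BL/6J is a pigmented one, and the stated purpose was to look at eyes of strains whose retinas degenerate at different rates. Nothing in the labels tells if a strain's 3 libraries are 3 pools of mice or 1, and p-values therefore cover only the variation from library to library, part of which can be technical. Values are RPKM (reads per kilobase of transcript, scaled to the mapped reads of the library), and the depth of the libraries is unknown.

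Inbred strains differ at many sites of the genome, and a variant that changes the transcription, splicing or stability of an RNA shows as a constant difference between strains. A/J is known for a mobile element inserted in Dysf, the gene of a muscle membrane repair protein, and for eyes without melanin. In a whole eye, RNA of the lens, cornea, conjunctiva, retina, pigment epithelium, outflow tissue and attached muscle or nerve is measured together, so fewer cells of a type and less RNA per cell cannot be told apart. Defining markers of the labelled tissue were present in all 9 libraries, among them Gnat1 of rods, Cryaa and Crybb2 of the lens, Krt12 and Krt5 of the cornea, Rpe65 of the pigment epithelium, and Acta1 and Ckm of muscle.

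The A/J libraries were not equally alike. A/J 1 and A/J 2 correlated with a Spearman coefficient of 0.99 across genes, whereas A/J 3 reached 0.939 and 0.916 with them. Along the axis of largest variance in a principal component analysis (49.1%), the scores were -42.4 for A/J 1, -51.4 for A/J 2 and 7.34 for A/J 3, the last inside the range of the other strains (-7.82 to 56.4, where C57BL/6J 3 was the highest). The deviations of A/J 1 and A/J 2 from the mean of all libraries fell with the GC content of the transcript (Spearman -0.65 and -0.72 across genes), while those of A/J 3 rose with it (0.46). Across genes, the log2 difference between A/J and the other strains had a Spearman correlation of -0.63 with GC content. The median GC content was 47.5% for the genes set apart above, 54.3% for those below and 50.5% for all genes tested. After a correction of each library for GC content, 304 of the 582 genes above and 279 of the 517 below were still set apart. Of the 230 genes that were both set apart and called, 191 were still called, and 181 of them were also still set apart. On the values as deposited, without scaling, 378 of the 582 and 401 of the 517 were set apart, and after quantile normalization 507 and 368.

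**Figure D1:**
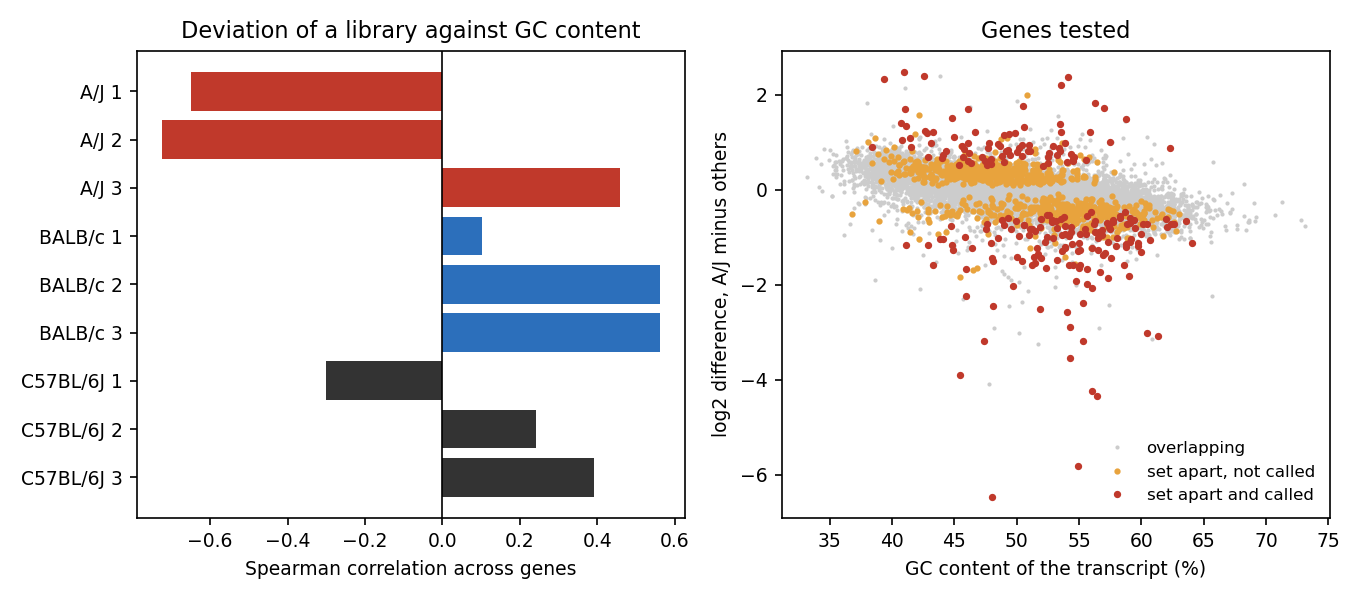
Left, Spearman correlation across genes between each library's deviation from the mean log2 value and the GC content of the transcript, for the 9 libraries. Right, the log2 difference between A/J and the mean of the other strains (vertical axis) against GC content in % (horizontal axis), 1 point per gene. A/J 1 and A/J 2 sit at -0.65 and -0.72 and A/J 3 at 0.46, and genes set apart above lie at lower GC content than those below.

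Among the 582 genes set apart above, A/J 3 was the A/J library nearest to the other strains in 413, and among the 517 below in 300. Without A/J 3, the contrast called 5053 genes, and without A/J 1 it called 99, so the number of calls depended on which A/J libraries entered. Of the 230 genes, 68 passed the filter and were called whichever of the 9 libraries was left out, 18 above and 50 below. Of these, 64 were also called and set apart after GC correction, after quantile normalization and on the values as deposited, 18 above and 46 below. These 64 genes are called steady here. With A/J 3 as the only A/J library, 28 of the 64 were still called. The 6 higher ones were Otor, H28, Sox30, Tuba1c, Oas2 and Smug1, and the 22 lower ones included Myoc, Gluld1, Prkca, Cck, Npas2, Spc25, Hspa8 and H2-Ab1. These genes were singled out after their values were seen.

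Genes that were higher in A/J included secreted proteins, a transcription factor and metabolic enzymes. Otor, which encodes otoraplin, a small secreted protein first known from the inner ear, had the largest log2 difference among the genes that were called and set apart above. Its values were 20.4, 24.4 and 12 RPKM for A/J 1 to 3, 4.59, 2.83 and 3.03 for BALB/c and 2.50, 2.60 and 2.23 for C57BL/6J. All 3 A/J libraries were more than double the highest other library, and A/J 3 was the lowest of the 3. The log2 difference was 2.48 (SE 0.24, adjusted p 0.00085, n = 3 libraries per strain, limma), 2.20 against BALB/c and 2.76 against C57BL/6J. With A/J 3 as the only A/J library it was 1.86 (adjusted p 0.048).

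Sox30 encodes an HMG-box transcription factor best known from the testis. A/J libraries held 7.56, 8.34 and 7.19 RPKM, against 2.97, 2.53 and 2.66 for BALB/c and 0.18, 0.28 and 0.41 for C57BL/6J. The 3 strains formed 3 separate levels, and A/J 3 lay close to A/J 1 and A/J 2. The log2 difference was 2.36 (SE 0.12, adjusted p 2.3e-05), and the BALB/c level was itself above that of C57BL/6J by 2.15 on the log2 scale (adjusted p 4.7e-05). Ins2, one of the 2 mouse insulin genes, also had its levels in the order A/J, BALB/c, C57BL/6J. Its values were 9.25, 12.4 and 9.20 RPKM for A/J, 4.08, 1.79 and 2.88 for BALB/c and 1.33, 1.01 and 1.25 for C57BL/6J, a log2 difference of 2.19 (SE 0.21, adjusted p 0.00085). A/J 1 and A/J 3 were nearly equal, and no A/J value overlapped another strain.

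Glo1 encodes glyoxalase 1, which detoxifies methylglyoxal, a by-product of glycolysis, and it lies in a segment known to be duplicated in A/J. Its values were 126, 162 and 93.6 RPKM for A/J, 38.1, 40.1 and 49.0 for BALB/c and 39.7, 41.3 and 26.5 for C57BL/6J. The other strains overlapped each other, and the lowest A/J library was above all 6. The log2 difference was 1.69 (SE 0.23, adjusted p 0.0058) and BALB/c minus C57BL/6J was 0.44 (adjusted p 0.55). Lyplal1, which encodes a lysophospholipase-like enzyme, stood at 14.4, 16.9 and 10.1 RPKM in A/J against 3.30 to 6.20 in the other libraries (log2 1.5, adjusted p 0.0088). Its call was lost without A/J 1 or A/J 2, with adjusted p of 0.057 to 0.069.

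Edn2 encodes endothelin 2, a signalling peptide that injured photoreceptors are known to make. Among the 12 largest rises of named genes it was the one in which A/J 3 stood clearly above the other A/J libraries. The values were 4.49, 4.16 and 8.31 RPKM for A/J, 0.89, 0.84 and 0.71 for BALB/c and 2.64, 1.11 and 2.83 for C57BL/6J (log2 1.71, SE 0.26, adjusted p 0.0093). Against C57BL/6J alone the adjusted p was 0.059. Tuba1c, an alpha tubulin gene, had A/J values of 29.99, 23.8 and 32.4 RPKM, against 5.99 to 9.24 in the 6 other libraries (log2 1.82, adjusted p 0.00028). Of its 31-base words, 55.3% also occur at another locus, so reads of other tubulin genes can be counted in it. Spink5, a protease inhibitor of epithelia, had A/J values of 2.80, 3.59 and 1.77 RPKM, against 0.19 to 0.93 elsewhere (log2 1.7, adjusted p 0.0089). It reached 1 RPKM only in A/J and passed the filter through A/J alone, so its adjusted p is read no further.

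The smallest adjusted p among the remaining higher genes belonged to Smug1, Apob48r, Cyp4a12a and Rab37. Smug1 encodes a DNA glycosylase that removes uracil, and its A/J values of 43.0, 45.9 and 49.8 RPKM lay above all others (17.1 to 23.6). The log2 difference was 1.20 (SE 0.10, adjusted p 0.00044). Apob48r, the receptor of lipoproteins that carry apolipoprotein B48, stood at 1.59 to 1.75 RPKM in A/J and at 0.31 to 0.58 elsewhere (log2 1.22, adjusted p 0.00050). Cyp4a12a, a fatty acid hydroxylase, stood at 1.38 to 2.18 RPKM against 0.36 to 0.78 (log2 1.22, adjusted p 0.0025), and 62.2% of its 31-base words are shared with other loci. Apob48r and Cyp4a12a reached 1 RPKM only in A/J and passed the filter through A/J alone, so their adjusted p values are read no further. Rab37, a small GTPase of secretory vesicles, was set apart more widely from BALB/c (log2 1.85, adjusted p 0.00084) than from C57BL/6J (0.58, adjusted p 0.14).

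**Figure D2:**
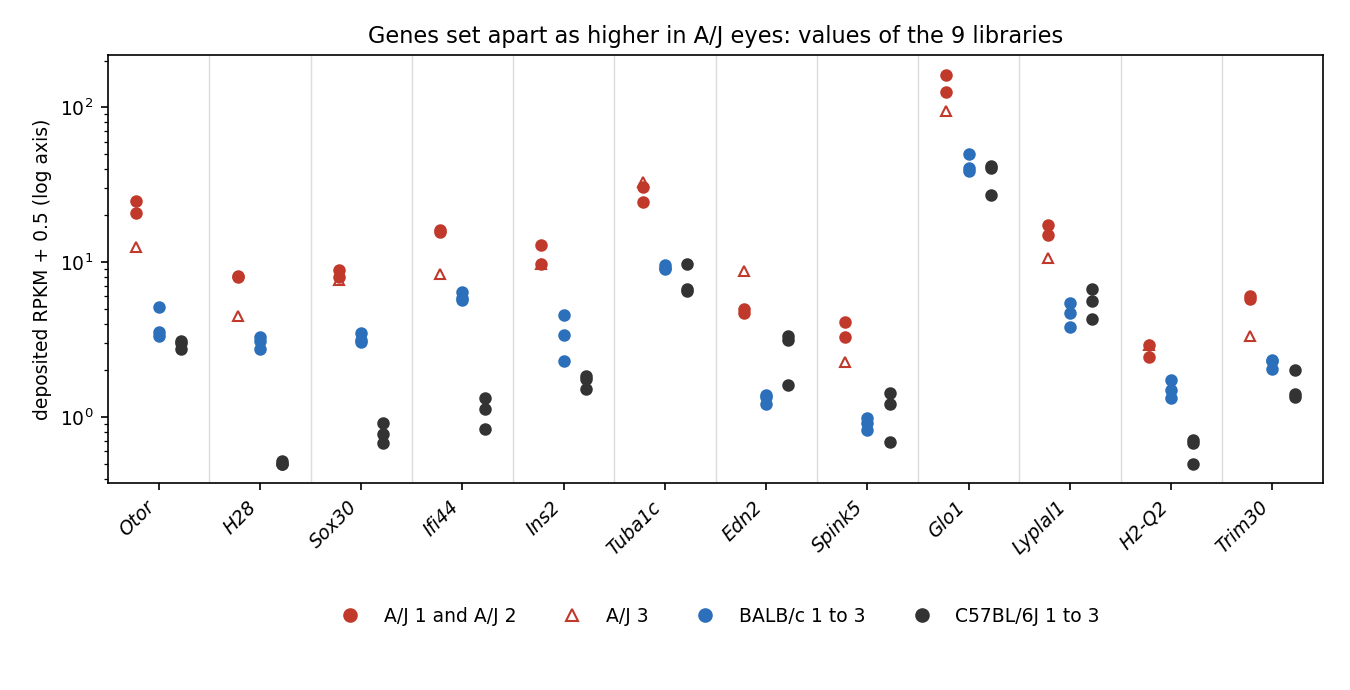
Deposited RPKM plus 0.5 on a log axis for the 12 genes with the largest log2 difference among those called and set apart above, with clone and predicted names passed over, 1 symbol per library. Open triangles mark A/J 3; in Edn2 it is the highest A/J library at 8.31 RPKM, and in Otor, Ifi44 and Glo1 it is the lowest at 12, 7.90 and 93.6 RPKM.

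Genes induced by interferon formed the list with the largest share of members set apart above. Interferons signal through receptors to transcription factors that bind a promoter element with repeated GAAA cores and switch on genes that sense viral RNA, degrade it or block its translation. Of 75 list members tested, 19 were set apart above and 3 below, 14 were called higher and none lower, and the median log2 difference was 0.39 against -0.01 over all genes tested. Over all genes tested the shares were 4.5% set apart above, 4.0% set apart below, 0.805% called higher and 1.64% called lower. At an unadjusted p under 0.05 the same limma fit gave 35 members higher and 3 lower. Of all 12920 genes tested, 3048 were under 0.05 in either direction. These shares and this count are the background for every list below. After GC correction 20 members were called higher and 1 lower, with a median of 0.27, and with A/J 3 as the only A/J library 3 were called higher, with a median of 0.14. Without A/J 3, 36 were called higher and 2 lower, without A/J 1 the count was 5 higher, and without A/J 2 it was 8 higher. Over all genes tested, the counts called higher in the same order were 2496 of 12884, 27 of 12872 and 41 of 12871. The contrast of BALB/c with C57BL/6J called 15 of the 75 members, beside 3.09% of all genes tested. Called differences in this list were therefore not limited to A/J.

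To show what the promoters of called list members look like, the 150 bases before the RefSeq start of 6 of the 14 are given, of which Gbp1 and Oas1a were called but not set apart (GRCm38.p6, sense strand of the gene, 5′ to 3′). Capitals mark matches to GAAA, any 2 bases and GAAA again, or to the reverse complement (TTTC, any 2 bases, TTTC), the core of the interferon-stimulated response element. The regions are chr19:34640739-34640888 (+) for Ifit1, chr7:104465194-104465343 (-) for Trim30, chr3:142594697-142594846 (+) for Gbp1, chr5:120907526-120907675 (-) for Oas1a, chr3:151749911-151750060 (-) for Ifi44 and chr3:151762892-151763041 (-) for H28.
Ifit1: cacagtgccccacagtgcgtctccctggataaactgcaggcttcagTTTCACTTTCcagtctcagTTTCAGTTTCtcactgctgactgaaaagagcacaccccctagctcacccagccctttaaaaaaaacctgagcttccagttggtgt
Trim30: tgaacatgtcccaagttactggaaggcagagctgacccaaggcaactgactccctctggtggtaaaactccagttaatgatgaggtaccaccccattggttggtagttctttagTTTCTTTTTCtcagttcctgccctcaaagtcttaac
Gbp1: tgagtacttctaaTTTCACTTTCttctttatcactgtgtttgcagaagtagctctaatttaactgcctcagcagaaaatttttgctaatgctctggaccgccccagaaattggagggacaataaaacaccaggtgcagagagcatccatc
Oas1a: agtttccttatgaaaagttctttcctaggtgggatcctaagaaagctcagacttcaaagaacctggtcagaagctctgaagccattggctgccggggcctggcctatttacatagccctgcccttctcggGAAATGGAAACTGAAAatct
Ifi44: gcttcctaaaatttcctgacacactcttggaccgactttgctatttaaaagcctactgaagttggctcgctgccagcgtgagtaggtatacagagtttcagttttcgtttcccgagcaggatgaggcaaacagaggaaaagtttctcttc
H28: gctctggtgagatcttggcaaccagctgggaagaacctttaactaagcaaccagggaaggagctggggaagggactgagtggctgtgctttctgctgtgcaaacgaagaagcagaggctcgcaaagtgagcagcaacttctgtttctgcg
The match starts 104 and 85 bases before the start in Ifit1, 36 in Trim30, 137 in Gbp1, and 20 and 14 in Oas1a, where both matches overlap. The letters do not occur in the windows shown of Ifi44 and H28. In windows from 250 bases before to 50 after the start, searched on both strands, 3.99% of 27025 genes hold a match, and of the list members with an entry 24 of 59 (40.7%) do, as do 3 of 8 members set apart above (37.5%) and 4 of 7 members called (57.1%). Among all genes set apart and called, 2 of 54 above and 5 of 112 below with an entry hold one (3.7% and 4.46%). A match is a run of letters in the reference sequence and says nothing of binding in these eyes.

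Ifi44 and H28 (now Ifi44l), which are related interferon-induced genes and neighbours on chromosome 3, were both set apart. Ifi44 stood at 15.1, 15.7 and 7.90 RPKM for A/J, 5.93, 5.37 and 5.21 for BALB/c and 0.83, 0.63 and 0.34 for C57BL/6J (log2 2.33, SE 0.24, adjusted p 0.0013). H28 stood at 7.62, 7.46 and 3.96 RPKM in A/J and 2.77, 2.26 and 2.58 in BALB/c, and it was listed at 0, 0 and 0.02 in C57BL/6J. The log2 difference of H28 was 1.07 from BALB/c (adjusted p 0.049) and is set by the added 0.5 against C57BL/6J. In both genes the 3 strains did not overlap, A/J 3 lay nearer to BALB/c than to the other A/J libraries, and BALB/c was above C57BL/6J (log2 2.59 and 2.66, adjusted p 0.0012 and 0.00031). Gbp1 (now Gbp2b), a guanylate-binding GTPase, followed the same order at 9.60, 9.68 and 4.34 RPKM in A/J and 3.74 to 4.14 in BALB/c, with C57BL/6J listed at 0 to 0.01. Its scaled A/J 3 value overlapped BALB/c, and against BALB/c the log2 difference was 0.79 (adjusted p 0.17).

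Other members separated A/J from both strains without a called difference between BALB/c and C57BL/6J. Oasl2, related to the enzymes that make 2-5 oligoadenylate, was at 21.5, 19.6 and 14.6 RPKM for A/J, 5.99 to 6.54 for BALB/c and 7.30 to 11.8 for C57BL/6J (log2 1.18, adjusted p 0.0085). Usp18, which removes ISG15 from proteins and damps the receptor, was at 7.43, 6.55 and 6.13 RPKM against 2.91 to 4.32 (log2 0.82, adjusted p 0.0088), and Trim30 (now Trim30a) at 5.28, 5.51 and 2.81 against 0.84 to 1.84 (log2 1.40, adjusted p 0.014). Ifit1, which binds viral RNA lacking a host cap, was at 15.2, 13.8 and 8.21 RPKM against 3.55 to 6.98 (log2 1.21, adjusted p 0.034), and Gbp4 at 2.35, 3.58 and 1.88 against 0.62 to 1.10 (log2 1.19, adjusted p 0.0072). In all of these except Usp18 the A/J 3 value was well below those of A/J 1 and A/J 2, and none overlapped the other strains. The call of Oasl2 was lost without A/J 1 or A/J 2 (adjusted p 0.059 and above), that of Trim30 without A/J 1, A/J 2 or BALB/c 3 (0.053 and above), that of Usp18 without A/J 1 (0.073), and that of Ifit1 without A/J 1, A/J 2, C57BL/6J 2 or BALB/c 1, 2 or 3 (0.080 to 0.21).

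Oas2, an enzyme that makes 2-5 oligoadenylate and so activates RNase L, was the list member besides H28 that was called with A/J 3 alone and was set apart there. It stood at 4.98, 3.90 and 6.36 RPKM for A/J, 3.08 to 3.39 for BALB/c and 0.52 to 1.09 for C57BL/6J (log2 1.32, SE 0.17, adjusted p 0.0044). A/J 3 was the highest of the 9 libraries. The sensors Zbp1 (log2 0.92, adjusted p 0.0088) and Dhx58 (0.99, adjusted p 0.028), the chaperone Rtp4 (1.15, adjusted p 0.027) and the antiviral GTPase Mx2 (0.81, adjusted p 0.029) were also called and set apart above. Zbp1 lost its call without A/J 1 (adjusted p 0.055), Dhx58 without A/J 1, A/J 2 or BALB/c 1, 2 or 3 (0.082 to 0.15) and on the values as deposited (0.051), Rtp4 without these or C57BL/6J 2 (0.063 to 0.17), and Mx2 without BALB/c 1, 2 or 3 or C57BL/6J 1 or 2 (0.059 to 0.091). Mx2 reached 1 RPKM only in A/J, so it passed the filter through A/J alone and was not tested when an A/J library was left out. The summed level of the list was 709.0 to 829 RPKM in A/J and 517 to 774 in the others, so the ranges overlapped.

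Genes of antigen presentation went both ways. MHC class I molecules show peptides from inside the cell and class II molecules show peptides taken up from outside, and their genes differ in sequence between strains. Of 29 members tested, 2 were set apart above and 5 below, and 2 were called higher and 5 lower. Between BALB/c and C57BL/6J, 11 of the 29 were called, beside 3.09% of all genes tested. H2-Ab1, the beta chain of class II, stood at 3.13, 3.86 and 4.13 RPKM for A/J, 10.2, 10.0 and 14.3 for BALB/c and 18.9, 15.4 and 24.6 for C57BL/6J (log2 -1.85, SE 0.16, adjusted p 0.00044). All A/J values were under 5 RPKM and all others above 10. H2-Aa, the alpha chain encoded next to it, was at 6.54, 6.60 and 6.10 RPKM for A/J, 7.03 to 10.4 for BALB/c and 17.5 to 23.04 for C57BL/6J (log2 -0.96, adjusted p 0.0058). Cd74, the invariant chain that escorts class II, was set apart below on scaled values only, at 19.3 to 21.7 RPKM in A/J and 21.7 to 23.7 in BALB/c, and was not called (log2 -0.89, adjusted p 0.11).

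The class I related genes H2-Q2 and H2-T10 were called higher in A/J (log2 1.49 and 1.38, adjusted p 0.0013 and 0.0022), whereas H2-T23 and H2-T22 were called lower (log2 -1.22 and -1.55, adjusted p 0.0034 and 0.039). H2-T23, which encodes Qa-1, a ligand of receptors on natural killer cells, was at 8.26, 9.52 and 9.80 RPKM in A/J against 17.2 to 31.8 elsewhere. H2-T22 and H2-T10 are neighbours that moved in opposite directions, and 67.4% and 64.2% of their 31-base words occur at another locus. H2-T22 lost its call without A/J 1, A/J 2, C57BL/6J 2 or BALB/c 1, 2 or 3 (adjusted p 0.063 to 0.11), on the values as deposited (0.051) and after quantile normalization (0.064). With genes that share sequence left out, 16 members remained and the called ones were 0 higher and 3 lower.

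Among genes that were lower in A/J, those of the outflow tissue and the lens included wide separations. Myoc encodes myocilin, a secreted protein of the trabecular meshwork whose mutations cause glaucoma. It stood at 11.1, 13.6 and 11.7 RPKM for A/J, 119, 97.3 and 84.3 for BALB/c and 68.9, 51.1 and 55.9 for C57BL/6J. The highest A/J value was far below the lowest other one, and the 3 strains did not overlap. The log2 difference was -2.59 (SE 0.15, adjusted p 6.8e-05), -3.06 against BALB/c and -2.11 against C57BL/6J, and it was -2.67 with A/J 3 alone (adjusted p 0.0095). Chad, a matrix protein of cartilage, was at 4.74, 4.85 and 4.98 RPKM for A/J, 7.74 to 10.2 for BALB/c and 23.3 to 48.6 for C57BL/6J (log2 -1.74, adjusted p 0.0060). Of the 30 list members of iris, ciliary body and outflow tissue, 3 were set apart above and 3 below, with a median of -0.07. Over all genes tested the shares were 4.5% and 4.0%.

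Gluld1 (now Lgsn) encodes lengsin, a protein of the lens fibre cell related to glutamine synthetase. Its values were 410.39, 420.34 and 349.95 RPKM for A/J, 1746, 1487 and 1639 for BALB/c and 1947, 1634 and 1308 for C57BL/6J. Both other strains overlapped each other and A/J lay far below them, with a log2 difference of -2.02 (SE 0.17, adjusted p 0.00043). It was the only one of 40 lens genes tested that was called. The summed level of the lens list, which the crystallins dominate, was 231800 to 254100 RPKM in A/J and 138000 to 326400 in the others.

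Spc25 encodes a subunit of the NDC80 complex, which ties chromosomes to the spindle. It stood at 4.03, 4.56 and 0.85 RPKM for A/J, 49.8, 37.9 and 40.7 for BALB/c and 65.2, 54.9 and 39.7 for C57BL/6J (log2 -3.90, SE 0.40, adjusted p 0.0013). A/J 3 was the lowest library and the other strains overlapped. Gpx3, the glutathione peroxidase secreted into plasma and aqueous humour, was at 31.8, 29.1 and 27.97 RPKM for A/J, 79.2, 84.8 and 84.7 for BALB/c and 200, 126 and 291 for C57BL/6J. The A/J libraries nearly agreed while those of C57BL/6J spread widely (log2 -2.06, SE 0.19, adjusted p 0.00084). Mt2, a metallothionein that binds zinc and copper, was lower by -0.94 on the log2 scale (adjusted p 0.0068), with its call lost without A/J 1 (adjusted p 0.058). The oxidative stress list as a whole had 3 of 61 members set apart above and 3 below, beside 4.5% and 4.0% of all genes tested. Its summed level was 3369 to 4581 RPKM in A/J and 4671 to 6698 in the others.

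Further large falls were seen in Lce3a, a cornified envelope gene (0.94, 0.73 and 0.36 RPKM in A/J, 4.80 to 14.1 elsewhere, log2 -2.90, adjusted p 0.0013), and in Isoc2b (0.16 to 0.62 RPKM in A/J, 1.09 to 7.03 elsewhere, log2 -1.98, adjusted p 0.0013). Both were separate from all other libraries, but with A/J values under 1 RPKM their log2 differences depend on the added 0.5. Lce3a shares 30.4% of its 31-base words with other loci. Atp6v0c, which forms the proton-carrying ring of the lysosomal pump, was listed at 0, 0.25 and 1.43 RPKM for A/J, at 5.89 to 13.2 for BALB/c and at 17.1 to 44.7 for C57BL/6J (log2 -4.25, SE 0.45, adjusted p 0.0013). With A/J values this near 0 its log2 difference depends on the added 0.5. The lysosomal list of 55 had 2 members set apart above and 3 below, beside 4.5% and 4.0% of all genes tested. The chromatin proteins Hmgn2 (log2 -2.24, adjusted p 0.00035) and Hmga1 (-3.07, adjusted p 0.044) share 29.8% and 62.1% of their 31-base words with other loci, and Hmga1 lost its call without A/J 1, A/J 2, C57BL/6J 2 or BALB/c 1, 2 or 3 (adjusted p 0.059 to 0.23) and on the values as deposited (0.056).

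**Figure D3:**
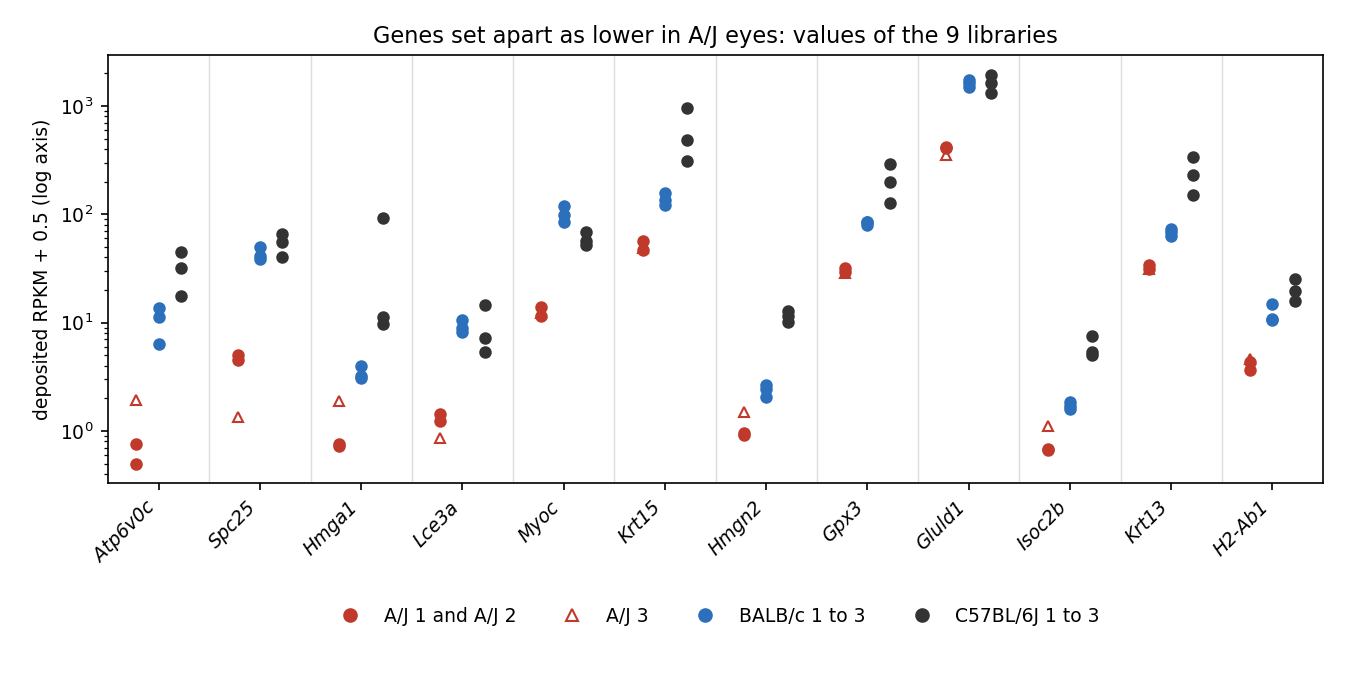
Deposited RPKM plus 0.5 on a log axis for the 12 genes with the largest negative log2 difference among those called and set apart below, with clone, predicted and ribosomal names passed over, 1 symbol per library, with open triangles for A/J 3. In Myoc, Krt15, Gpx3, Gluld1 and Krt13 the A/J symbols nearly coincide, and in Gluld1 they lie at 349.95 to 420.34 RPKM below 1308 to 1947.

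Keratins and other genes of the cornea, conjunctiva and surface epithelium were lower in A/J or not called, and none was set apart above. Of 50 members tested, 11 were set apart below and 7 were called lower, with a median of -0.23. Between BALB/c and C57BL/6J, 8 of the 50 were called, beside 3.09% of all genes tested. Krt15, a keratin of basal cells, stood at 46.2, 56.3 and 48.6 RPKM for A/J, 156, 120 and 134 for BALB/c and 484, 311 and 954 for C57BL/6J (log2 -2.38, SE 0.26, adjusted p 0.0017). Krt13, its neighbour on the chromosome and a keratin of non-cornified epithelium, was at 30.9 to 33.7 RPKM for A/J, 62.0 to 72.7 for BALB/c and 151 to 336 for C57BL/6J (log2 -1.92, SE 0.19, adjusted p 0.00093). In both, the 3 strains formed separate levels with C57BL/6J highest. Krt4, Krt7 and Krt17 (log2 -1.65, -1.65 and -1.5, adjusted p 0.017, 0.031 and 0.023) had the same order of strain means. Each lost its call without A/J 1 or BALB/c 1, 2 or 3, Krt4 and Krt7 also without A/J 2, and Krt7 without C57BL/6J 1 (adjusted p 0.054 to 0.19 over the 3 genes). Krt7 was not called on the values as deposited (0.051), and Krt4 was called but not set apart after GC correction.

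Muc1, a membrane mucin of the ocular surface, was at 1.5 to 1.95 RPKM in A/J and 5.02 to 11.3 elsewhere, with BALB/c and C57BL/6J overlapping (log2 -1.58, adjusted p 0.0025). Sfn, a 14-3-3 protein of stratified epithelia, was at 25.4 to 33.7 RPKM against 44.1 to 87.8 (log2 -1.19, adjusted p 0.017), and it was not called after GC correction (adjusted p 0.15) or without A/J 1, A/J 2, BALB/c 2 or BALB/c 3 (0.060 to 0.084). The defining keratins of the corneal epithelium did not separate: Krt12 was at 2227 to 3015 RPKM in A/J and 1632 to 2709 in the others (adjusted p 0.26), and Krt5 at 771.5 to 945 against 808 to 1232 (adjusted p 0.27). The summed level of the list was 8685 to 11300 RPKM in A/J and 9381 to 13220 in the others. After GC correction 6 members were called lower and 1 higher, and 18 lower and 10 higher when A/J 3 and C57BL/6J 3 were both left out. With both left out, 7356 of all 12790 genes tested were called, so that count is not particular to this list. At an unadjusted p under 0.05 limma gave 20 members lower and 3 higher, beside 3048 of 12920 over all genes tested.

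In the retina, rods turn light into a change of cyclic GMP, rod signals pass to rod bipolar cells, and amacrine and ganglion cells form the inner layers. Of 42 rod genes tested, 6 were set apart below and 2 above, 2 were called lower and 2 higher, and the median was -0.19. After quantile normalization 1 was set apart below and 1 above, 1 was called lower and 2 higher, and the median was -0.09. On the values as deposited 8 were set apart below, and after GC correction 7, with 2 above in each. The number below thus depended on the scaling. The called falls were Pde6a, a subunit of the phosphodiesterase (log2 -0.60, adjusted p 0.038), and Fscn2, an actin bundling protein (-0.59, adjusted p 0.029), and each kept its call only without A/J 3 or C57BL/6J 3 among the 9 single omissions (adjusted p otherwise 0.051 to 0.23). Fscn2 was neither called nor set apart after GC correction (adjusted p 0.31), nor was Pde6a after quantile normalization (0.12). Sag, the rod arrestin, which ends the response to light, went the other way at 2382, 2903 and 2092 RPKM for A/J, 1675 to 1752 for BALB/c and 1134 to 1296 for C57BL/6J (log2 0.78, adjusted p 0.022; 0.068 to 0.13 without A/J 1, A/J 2 or BALB/c 1, 2 or 3). The summed rod list was 20600 to 21070 RPKM in A/J and 22660 to 24760 in the others. Cone genes had no member set apart or called by limma among 16 tested. At an unadjusted p under 0.05, 4 were lower and 1 higher, beside 3048 of 12920 over all genes tested. The summed cone list was 973 to 1021 RPKM in A/J and 1063 to 1356 in the others.

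Prkca, protein kinase C alpha, by which rod bipolar cells are commonly stained, had nearly equal values within each strain. They were 6.14, 6.11 and 6.33 RPKM for A/J, 14.5, 15.2 and 14.0 for BALB/c and 15.4, 16.4 and 16.9 for C57BL/6J. The other strains were close to each other and every A/J value was far below them. The log2 difference was -1.23 (SE 0.10, adjusted p 0.00035), was called in all 24 alternatives, and BALB/c minus C57BL/6J was 0.03 (adjusted p 0.96). None of the other bipolar genes was called lower: Cabp5 and Isl1 were called higher (log2 0.92 and 0.68, adjusted p 0.044 and 0.048). Cabp5 lost its call without A/J 1, A/J 2, C57BL/6J 2 or BALB/c 1, 2 or 3 (0.096 to 0.24) and Isl1 whichever library other than A/J 3 was left out (0.056 to 0.19) and after quantile normalization (0.055). The median of the 25 was 0.02.

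Cck, the neuropeptide cholecystokinin of amacrine cells, stood at 6.73, 6.22 and 8.61 RPKM for A/J, 12.3, 13.6 and 13.1 for BALB/c and 27.9, 26.7 and 35.2 for C57BL/6J (log2 -1.39, SE 0.12, adjusted p 0.00049). The 3 strains again formed 3 levels. The neurofilament genes Nefl and Nefm, neighbours that encode the light and medium subunits of the ganglion cell axon skeleton, were both set apart below (log2 -0.64 and -0.69, adjusted p 0.017 and 0.0061). Nefl was at 54.5 to 58.0 RPKM for A/J, 62.8 to 70.9 for BALB/c and 114 to 121 for C57BL/6J. The call of Nefm was lost after GC correction (adjusted p 0.19) and without A/J 1 (0.062), and that of Nefl without A/J 1, A/J 2, BALB/c 2 or BALB/c 3 (0.071 to 0.10). Gad2, an enzyme of GABA synthesis, was higher (log2 0.73, adjusted p 0.017; 0.053 to 0.082 without A/J 1, A/J 2 or BALB/c 1, 2 or 3). Of 41 such genes, 1 was set apart above and 4 below, beside 4.5% and 4.0% of all genes tested. Their summed level was 898.3 to 962.8 RPKM in A/J and 995.9 to 1124 in the others.

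The pigment epithelium supports photoreceptors and regenerates the chromophore. Of its 31 genes 2 were set apart above and 2 below, and Myo7a, a myosin that moves melanosomes and phagosomes, was called lower at 1.42 to 2.20 RPKM for A/J, 2.49 to 2.83 for BALB/c and 4.71 to 6.40 for C57BL/6J (log2 -0.90, adjusted p 0.0088; 0.055 without A/J 1). Rpe65, the isomerase of the visual cycle, was at 229, 249.88 and 117 RPKM in A/J against 56.1 to 114 in the others, and on scaled values it overlapped (log2 1.08, adjusted p 0.088). Melanin genes had 1 member of 30 set apart above, 2 below and none called by limma. Over all genes tested, 4.5% were set apart above and 4.0% below, the background for both lists. Of the melanin genes, 3 were higher and 3 lower at an unadjusted p under 0.05, beside 3048 of 12920 over all genes tested. Npas2, a clock transcription factor that pairs with Bmal1, was the only one of 25 clock genes called, at 1.18, 1.14 and 0.68 RPKM in A/J and 2.35 to 3.96 elsewhere (log2 -1.10, adjusted p 0.0067).

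Vessel genes mostly had small negative differences. Of 34 genes of endothelium and pericytes, 8 were set apart below and none above, 3 were called lower (Vwf, Cldn5 and Eng, log2 -0.93, -0.72 and -0.79, adjusted p 0.029, 0.046 and 0.049), and 5 had a positive difference. At an unadjusted p under 0.05 limma gave 11 lower and 0 higher, beside 3048 of 12920 over all genes tested in either direction. Vwf, the clotting factor stored in endothelium, was at 0.57 to 1.25 RPKM in A/J and 1.73 to 2.49 elsewhere, and Cldn5, the tight junction protein, at 13.4 to 15.1 against 20.1 to 27.3. All 3 lost their calls without A/J 1, A/J 2, C57BL/6J 2 or BALB/c 1, 2 or 3, and Cldn5 and Eng also without C57BL/6J 1 (adjusted p 0.058 to 0.23). Cldn5 was neither called nor set apart after GC correction (0.40) and not called after quantile normalization (0.070), and Eng was not called on the values as deposited (0.071). The summed list was 289.6 to 334.5 RPKM in A/J and 343 to 417 in the others. In the matrix list of 50 genes, fibronectin Fn1 was called higher (17.1 to 20.2 RPKM against 9.28 to 12.1, log2 0.82, adjusted p 0.0058; 0.059 without A/J 1) and the matrix protease Mmp14 lower (13.2 to 14.4 against 23.4 to 28.7, log2 -0.89, adjusted p 0.0038).

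Myelin genes had the highest median of the lists, 1.02, with 17 of 18 differences positive, but none was called by limma and 1 was set apart. At an unadjusted p under 0.05, 7 were higher and 0 lower, beside 3048 of 12920 over all genes tested in either direction. The summed myelin level was 1540 RPKM in A/J 1, 704.7 in A/J 2 and 513.8 in A/J 3, against 390.7 to 584 in the others, so A/J 1 was far the highest and A/J 3 lay within the range of the others. The part of this RNA in the other differences was not tested. Dysf, which carries the A/J insertion, stood at 0.32, 0.44 and 0.54 RPKM in A/J and 0.88 to 1.64 elsewhere (log2 -0.83, adjusted p 0.018; 0.058 to 0.12 without A/J 1, A/J 2 or BALB/c 1, 2 or 3, and 0.055 after quantile normalization), and the A/J libraries did not overlap the others. It was the only muscle gene of 36 that was called. Of the 26 microglia and macrophage genes, Lyve1 was called higher (log2 0.85, adjusted p 0.037; 0.085 to 0.23 without A/J 1, A/J 2, C57BL/6J 2 or BALB/c 1, 2 or 3), and the chemokine receptor Cxcr4 was higher by 0.61 (adjusted p 0.019), which was not called after GC correction (adjusted p 0.076) or without A/J 1, A/J 2 or BALB/c 1, 2 or 3 (0.055 to 0.12).

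Cytoplasmic ribosomal protein genes included the widest differences among the genes called and set apart, and they are uncertain one by one. Of 84 tested, 14 were set apart below and none above, 21 were called lower, and the median was -0.63. Between BALB/c and C57BL/6J, 30 of the 84 were called, beside 3.09% of all genes tested, so such differences were not limited to A/J. Rps3a was at 0.22, 0.20 and 0.38 RPKM in A/J against 54.1 to 88.2 in the others (log2 -6.46, SE 0.16, adjusted p 1.9e-07), a difference that depends on the added 0.5. Rpl26, Rps18, Rpl29 and Rpl3 were instead low in both albino strains: Rpl26 was at 0 to 0.95 RPKM for A/J, 1.09 to 1.93 for BALB/c and 119 to 195 for C57BL/6J. Ribosomal genes have many processed copies, and 76.9% of the 31-base words of Rps3a occur elsewhere. Among the 27 members without such shared sequence, 4 were called lower, with a median of -0.27. Their summed level over the whole list was 5498 to 7147 RPKM for A/J, 10390 to 11260 for BALB/c and 6421 to 7584 for C57BL/6J, so A/J and C57BL/6J overlapped.

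Shared sequence was more frequent among falls. Of the genes set apart and called, 29.9% of those below and 13.6% of those above had at least 20% of their 31-base words at another locus, against 10.7% of all genes tested. Such genes also include Mt2 (58.1%), Nefl (32.2%), Sfn (26.85%) and H2-T23 (25.8%) below, and Nnt (47.8%) and H2-Q2 (32.8%) above. Hspa8, the constitutive heat shock cognate with 44.8% shared, was at 16.1 to 19.7 RPKM for A/J, 33.8 to 41.4 for BALB/c and 75.2 to 87.1 for C57BL/6J (log2 -1.60, adjusted p 0.00028). Eif4a1, the helicase of translation initiation with 31.1% shared, was at 7.36, 7.36 and 8.13 RPKM in A/J against 20.3 to 27.1 elsewhere (log2 -1.51, adjusted p 0.00023). Other steady falls had almost no shared sequence. Dnajc10, a chaperone of the endoplasmic reticulum, was at 6.95 to 8 RPKM in A/J and 16.7 to 21.1 elsewhere (log2 -1.28, adjusted p 0.0010), and Lrrc48, a component of motile cilia, at 1.59 to 2.42 against 5.78 to 9.18 (log2 -1.51, adjusted p 0.00069). Metapl1 (log2 -1.42, adjusted p 0.00037) and Rdm1 (-1.11, adjusted p 0.0044) were likewise separate, and both other strains overlapped in all 4.

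**Figure D4:**
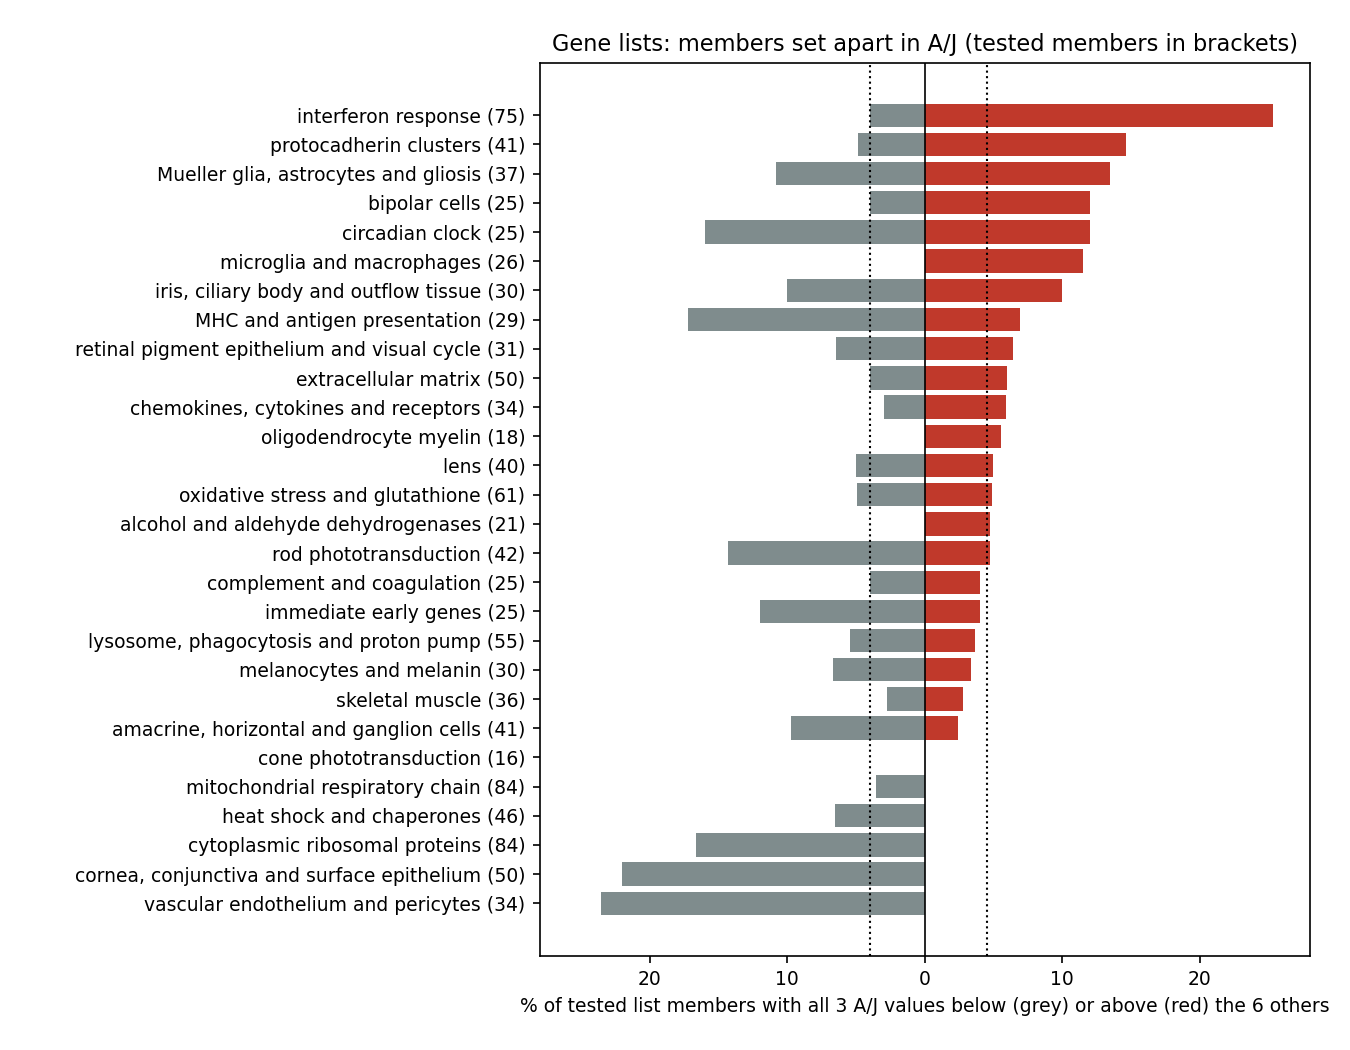
Share of the tested members of each gene list of at least 15 genes whose 3 A/J values all lay above (red, to the right) or all below (grey, to the left) the 6 others, in % with the number of tested members in brackets. Dotted lines give the same shares over all genes tested, 4.5% above and 4.0% below. The interferon list reaches farthest to the right, with 19 of 75, and vessels and surface epithelium farthest to the left, with 8 of 34 and 11 of 50.

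The contrast between BALB/c and C57BL/6J holds no A/J value, but the 6 values it compares also set the range that A/J had to leave. It called 399 of all genes tested (3.09%), 63 of the 1099 genes set apart and 58 of the 230 that were also called, 25.6% of those above and 25.0% of those below. Of the 86 genes that were called but overlapped, 78 were called between BALB/c and C57BL/6J (90.7%). The rule thus passes over genes with a wide gap between these strains, and the shares are a description of the genes chosen. Among the genes with 3 separate levels, A/J was at the extreme and BALB/c between in Sox30, Ifi44, Krt15, Krt13, Gpx3 and Cck, while in Myoc C57BL/6J lay between (BALB/c minus C57BL/6J 0.94, adjusted p 0.022). For Prkca, Spc25, Gluld1, Rps3a and Glo1 the BALB/c minus C57BL/6J difference was -0.11 to 0.44 and not called. Taken one by one, A/J minus BALB/c called 320 genes (2.48%) and A/J minus C57BL/6J 348 (2.69%), with 92 of the 230 called in both. These contrasts share the A/J libraries.

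**Figure D5:**
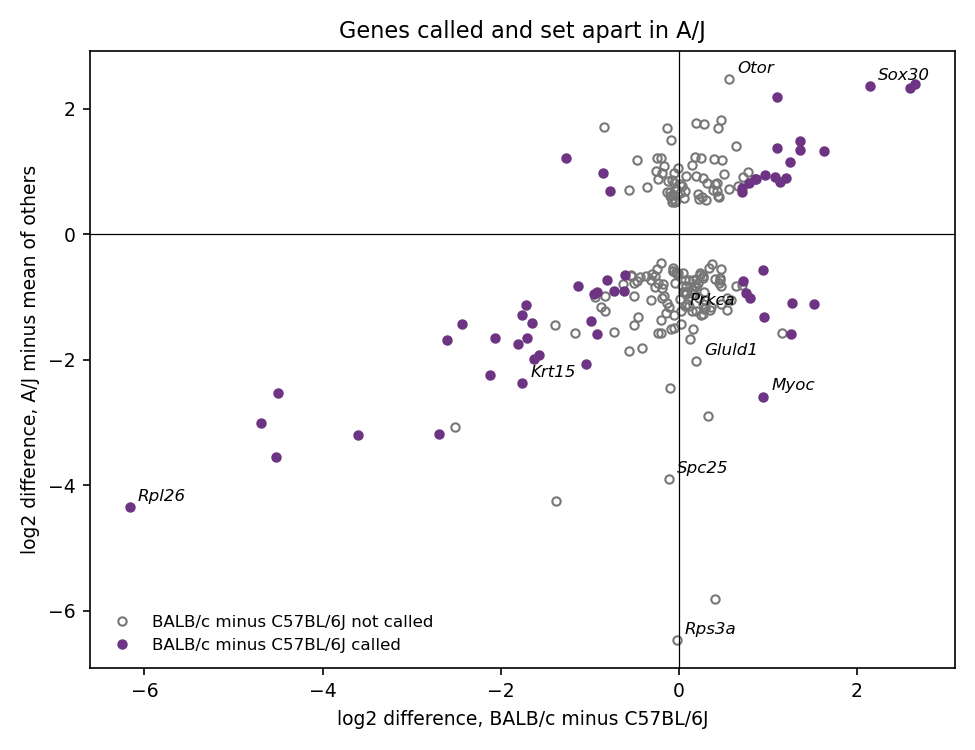
Log2 difference of A/J from the mean of the other strains (vertical axis) against the log2 difference of BALB/c from C57BL/6J (horizontal axis) for the 230 genes called and set apart, 1 point per gene. Filled points (58) are called between BALB/c and C57BL/6J. Prkca, Spc25, Gluld1 and Rps3a lie near 0 on the horizontal axis, and Rpl26, Krt15 and Sox30 lie away from it.

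By position along the reference chromosomes, 227 of the 230 genes could be placed. Of all 12712 neighbouring pairs of tested genes, 14 consisted of 2 such genes. These 14 pairs held 25 different genes, and several pairs are related genes or share sequence. Whether 14 is more than random placement would give was not tested. In 12 of the 14 pairs both genes moved one way, 3 above and 9 below. Besides Ifi44 and H28, Krt13 and Krt15, Nefl and Nefm, and H2-Ab1 and H2-Aa, they included Acsf2 and Chad, and Rdh1 and Rdh9. Rdh1 and Rdh9 encode retinol dehydrogenases and share 27.9% and 72.0% of their 31-base words with other loci. Both passed the filter through A/J alone, so this pair is read no further. By the authors' deposited categories, 13 of the 148 genes below were filed under translation (8.78%, against 2.21% of all genes tested) and none of the 82 above. The 148 include 11 genes of the cytoplasmic ribosomal protein list, which are uncertain one by one as described above. The translation share is therefore not a separate result. Under metabolic process stood 19 of the 82 (23.2% against 14.8%). Some of the 82, such as Cyp4a12a, Rdh1, Rdh9 and Spink5, passed the filter through A/J alone, so this share is read no further. Other categories are not given here.

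The rule has an edge, and genes near it can differ little from genes just past it. Just inside above, Aifm1 had a lowest A/J value of 16.6 RPKM before scaling beside a highest other value of 17.1, and Gm106 had 7.10 beside 6.82. Just outside, Braf and Hexim1 had lowest A/J values of 5.32 and 16.6 beside 5.51 and 17.6. Below, Calml3 (highest A/J value 286.45, lowest other 295) and Nrm were just inside. AA388235 and Hbb-b1 were just outside, with A/J listed at 0 in both, tied with the lowest other library. With 1 library left out, their log2 differences were -0.80 to -0.79 and -1.99 to -1.65, against -0.44 to -0.35 for Calml3. These ties are therefore not small differences. Among the genes that check strain labels, Nnt, which C57BL/6J mice carry with a deletion, was at 8.05 to 10.2 RPKM for A/J, 6.56 to 6.72 for BALB/c and 3.96 to 5.12 for C57BL/6J (log2 0.73, adjusted p 0.024; 0.060 to 0.16 without A/J 1, A/J 2, C57BL/6J 2 or BALB/c 1, 2 or 3). C57BL/6J mice have a deletion in H2-Ea, and the gene was listed at 0 in all 3 of their libraries. Tyr (adjusted p 0.63) and Mc1r (adjusted p 0.16) were neither called nor set apart.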

How the data were processed

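Each library has a table of 13089 genes deposited by the authors, with 1 value per gene, taken as RPKM because value times transcript length came to about the total expected of RPKM in 8 libraries (C57BL/6J 3 had 117%). The file headers name no unit. CASAVA 1.7, GenomeStudio and mouse build mm9 are named, per the submitters' processing notes. How reads were counted is not stated there. That build is of a C57BL/6J mouse, so reads of A/J that differ from it may align less often, which was not tested. After scaling by median-of-ratios factors, which were 0.931 to 1.16, values were analysed as log2(RPKM + 0.5), so log2 differences of low genes are understated. Genes reaching 1 RPKM in at least 3 libraries were kept (12920, leaving out 169). One limma 3.58.1 fit (R 4.3.3, trended prior variance, robust, strain as the only term, all 9 libraries, tested on simulated data) gave every contrast, two-sided with Benjamini-Hochberg adjustment over all genes tested, and every adjusted p printed. The members of the comparison and the 30 gene lists (1092 tested genes) were chosen with earlier results of these data known. Named genes were, among genes both called and set apart, the 12 with the largest rise and the 12 with the largest fall, with a log2 difference of 1 or more in size and 2 RPKM or more as the mean of the higher group (clone names and ribosomal genes passed over), list members by smallest adjusted p or size, the 4 smallest adjusted p per direction, strain checks and genes at the edge of the rule. Others, among them most interferon genes, Dnajc10, Rdm1, Cytl1, Muc1 and the myelin genes, were picked with their values in view. GC content (98.2% of genes), shared 31-base words on either strand and neighbouring genes came from the GRCm38 reference, and promoters from RefSeq. Where a count of single omissions is given, each of the 9 libraries was left out in turn. Some genes are not reported here.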

Additional observations from a re-analysis of the deposited data

How the results depend on the processing

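The reported fit called 316 genes, set 582 apart above and 517 below, and did both for 230, and 63 of the 1099 set apart were called between BALB/c and C57BL/6J. Leaving out 1 library at a time gave 99 to 5053 called, 615 to 3335 above and 543 to 3409 below. It gave 77 to 4676 called and set apart, and 30 to 74 called between BALB/c and C57BL/6J. The highest counts came without A/J 3. The rule is easier to meet with fewer libraries, so counts above and below with libraries left out are not comparable with 582 and 517. With A/J 1 and A/J 2 both left out, the counts were 50 called, 1731 above, 1717 below and 46 called and set apart, where the lone A/J 3 is assumed to vary like the other groups. Without both A/J 3 and C57BL/6J 3 they were 7356, 3838, 3611, 6535 and 134, and with GC correction as well, an alternative chosen after seeing the data, 4425, 2696, 2614, 3858 and 175. A mean of at least 5 RPKM left 146 called, 325 below, 110 called and set apart and 32 between the other strains, and leaving out genes that share sequence gave 196 called and 29 between the other strains. Array weights gave 10693 called, 1083 called and set apart and 318 between the other strains, but that fit did not converge and gave A/J 1 almost all the weight. The replicate block gave 421 calls, 263 of them set apart, with 216 of the 230 kept, and 424 with GC correction as well. Deviations from the strain means correlated at 0.337 to 0.537 among libraries numbered 1, -0.515 to 0.021 among those numbered 2 and 0.092 to 0.472 among those numbered 3, and 3 of the 9 libraries correlated best with one of their own number, so the numbers were not taken as pairs. GC correction alone gave 469 calls. The pseudocounts 1 and 0.1, no filter, quantile normalization, values as deposited and a plain prior kept these counts within 1.5 times, but not all the genes: 282 of the 316 calls were kept on the values as deposited and 272 after quantile normalization. Differences that changed sign were Braf at -0.037 with GC correction, with or without the replicate block, and, with GC correction and both libraries out, Braf at -0.088, Il1rap at -0.038, Krt5 at 0.12 and Opn1mw at -0.0077. Others were Opn1mw at -0.0065 to 0.18 without 1 library, H2-Ea at 0.37 with a pseudocount of 0.1, Tyr at -0.27 to 0.0088 without 1 library, Gnat1 at 0.00092 after quantile normalization, and Opn1sw at -0.017 as deposited, -0.10 with GC correction, with or without the replicate block, -0.15 to 0.19 without 1 library and -0.39 with A/J 3 alone. Depth is unknown, so no counting error can be given.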
